A study of Mus musculus with 22 samples.

Results

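Aminoacyl-tRNA synthetases are the enzymes that load each amino acid onto its transfer RNA (tRNA) before translation. Their transcripts were followed here on 22 expression arrays of mouse aortic intima. A gene was a member if its array symbol was 1 capital letter followed by "ars", with an optional 1, 2 or l, or if it was Eprs, Farsa, Farsb, Qars or Pars2. This gave 24 of the 11807 genes named on the array. Each gene was read from 1 of the 40 probe sets of the family, the one with the highest mean over the 22 arrays. The cytosolic enzymes were Aars, Eprs, Farsa, Farsb, Hars, Iars, Lars, Nars, Qars, Rars, Sars, Vars, Wars and Yars (14 genes). The mitochondrial enzymes were Ears2, Fars2, Hars2, Iars2, Pars2, Rars2, Sars2 and Tars2 (8 genes). Gars and Kars (2 genes) each encode the enzyme of both compartments. The cytosolic synthetases of aspartate, cysteine, methionine and threonine were not analysed here.

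All mice were of the C57BL/6 strain and fed chow. Cells labelled as aortic endothelium were scraped from the inner face of the aorta, either directly or after a stay in culture medium. The directly sampled arrays came from 4-week-old wild-type mice (n = 6) and from 4-week-old ApoE -/- mice (n = 4), which lack apolipoprotein E throughout the body and are labelled as hyperlipidemic and not yet lesioned. For the other 4 groups, wild-type aortas were opened flat and kept for 4 h in DMEM with 1% serum. This was done with medium alone, with the bacterial endotoxin LPS at 4 ng/mL, with oxidized low-density lipoprotein (oxLDL) at 50 µg/mL, or with the oxidized phospholipid mixture oxPAPC at the same concentration as oxLDL (n = 3 in each). The age of the mice behind the incubated aortas and the number of animals per array are not given in the labels, so the p-values below measure the spread between arrays only. All values are log2 signals as deposited. Differences were tested with limma, and called means an adjusted p under 0.05 across all genes in that fit.

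In the cytosol, a set of synthetases, in general one for each amino acid, charges the tRNAs used by the ribosomes of the cell, and several of these enzymes sit together in a multisynthetase complex held by the scaffold proteins Aimp1, Aimp2 and Eef1e1. A separate set of nuclear genes, most with names ending in 2, supplies the enzymes that are imported into mitochondria to translate the few proteins encoded there. Many cytosolic synthetase genes are known targets of ATF4, the transcription factor made when amino acids run short or protein folding is disturbed, whereas the mitochondrial genes are not usually counted among its targets.

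Array medians lay between 5.23 and 5.39, and arrays of 1 group correlated across genes at r = 0.977 to 0.991. The 40th percentile of the arrays, used as the level filter, lay at 4.58 to 4.71. Of 16 endothelial markers 15 passed that filter, as did all 10 smooth muscle and all 5 fibroblast markers measured, so transcripts of other vessel cells were present too. The endothelial list averaged 8.05 to 8.67 in fresh wild-type intima. Macrophage and leukocyte markers averaged 4.77 to 5.42 in fresh wild-type intima, 6.29 to 6.52 after medium and 5.70 to 5.76 after oxPAPC. Smooth muscle markers averaged 8.48 to 9.46, 7.31 to 8.36 and 8.57 to 8.97 in the same order. In RNA from mixed tissue, fewer cells of a type and less transcript per cell cannot be told apart. Of the 24 synthetases, Vars, Fars2, Pars2, Sars2 and Tars2 stayed below the level filter, which left 19 for the tests that involve incubated arrays. Their log2 signals ran from 3.19 (Fars2) to 4.94 (Tars2), so their changes are read close to background.

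After 4 h in medium, most tested cytosolic synthetases rose, and 3 mitochondrial ones fell. Against fresh wild-type intima, 11 of 13 tested cytosolic synthetases were higher and none was lower. Of these, Yars and Farsa passed the level filter through the medium arrays alone, and without them 9 of 11 were higher. Both Gars and Kars were higher too. Of 4 tested mitochondrial synthetases, 3 were lower and none was higher. Much of the transcriptome differed between these groups: 58.7% of the 7508 tested genes were called, 24.3% higher and 34.4% lower. Over all 14 cytosolic members, those below the filter included, the median log2 difference was 1.39, or 1.30 with the fresh levels of Yars and Farsa set at the 40th percentile. Over all 8 mitochondrial members it was -0.40, and over all genes it was -0.05. Incubation, mouse age and any difference in handling between fresh and incubated samples cannot be told apart in this comparison.

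**Figure D1:**
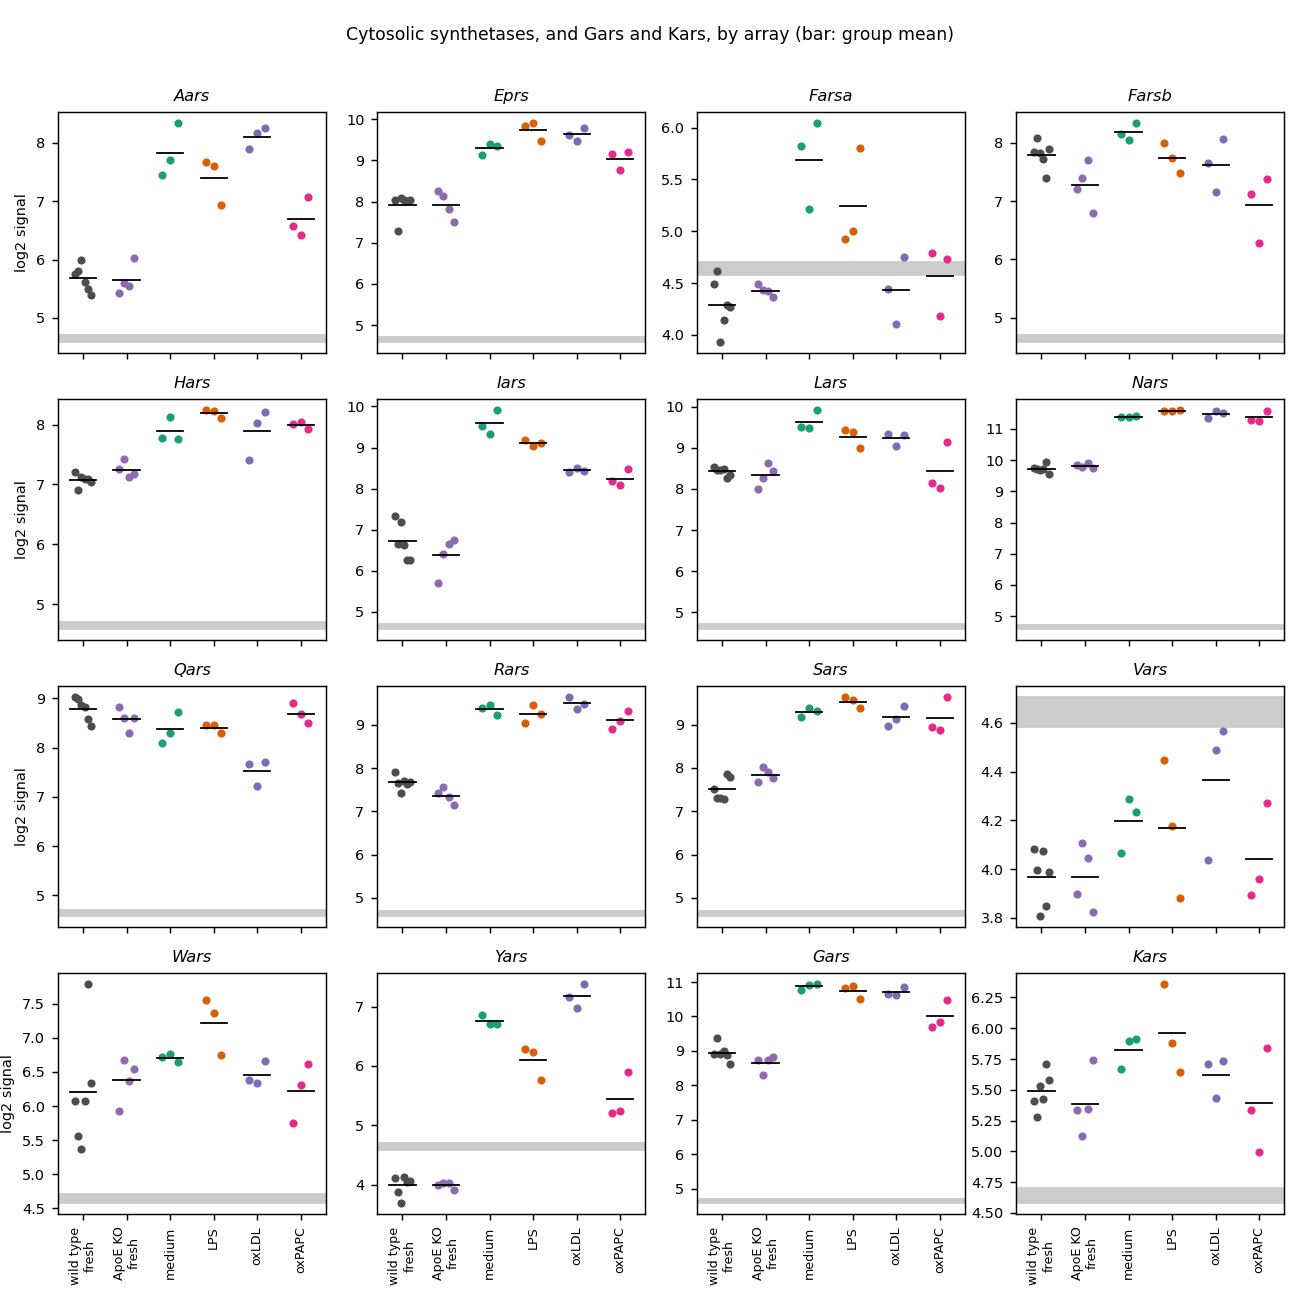
Log2 signal of the 14 cytosolic synthetases and of Gars and Kars on each of the 22 arrays, 1 point per array, with a bar at the group mean and a grey band for the 40th percentile of the arrays (4.58 to 4.71). For Iars, Yars, Aars and Gars every medium array lies above every fresh array, and every oxPAPC array lies below every medium array.

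Iars, the isoleucyl enzyme and a member of the multisynthetase complex, measured 9.53, 9.33 and 9.91 in medium replicates 9, 10 and 11. In the 6 fresh wild-type arrays it had a lowest value of 6.27, a median of 6.64 and a highest value of 7.33. All medium arrays thus stood well clear of the fresh ones, and Iars was 7.29-fold higher (log2 2.87 ± 0.25 SE, adjusted p = 6.23e-06). Its second probe set gave 2.71 ± 0.21. Yars, the tyrosyl enzyme, measured 6.86, 6.70 and 6.71 in medium and 3.69 to 4.14 in fresh tissue (median 4.05). All fresh Yars values lay below the 40th percentile, so it entered the test through its high medium values alone and its fold is a lower bound. Its medium mean of 6.75 was at least 4.27-fold above the 40th percentile of the fresh arrays, which averaged 4.66, and the measured difference was 2.77 ± 0.12 (adjusted p = 1.21e-07).

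Aars, the alanyl enzyme, measured 7.45, 7.70 and 8.34 in medium, against 5.39 to 5.99 (median 5.68) in fresh tissue. The groups did not overlap, and Aars was 4.45-fold higher (2.15 ± 0.20, adjusted p = 8.29e-06). The other Aars probe set rose further, by 2.93 ± 0.14. Gars, the glycyl enzyme of both compartments, measured 10.77, 10.91 and 10.95 in medium and 8.61 to 9.38 (median 8.91) in fresh tissue. Again no medium array reached down to the fresh range, and Gars was 3.81-fold higher (1.93 ± 0.15, adjusted p = 3.31e-06).

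Iars, Yars, Aars and Gars had the largest rises in the family, also with Yars at its bound of 2.09, and the same 4 genes carry the motif TGATGNAA near their start. This motif is the core of the C/EBP-ATF response element bound by ATF4. RefSeq windows of 250 bases before to 50 bases after the start were at hand for 16 of the 24 members, and both strands were searched. Of all 27025 genes with such a window, 4.51% held the motif. In the family it was found in 3 of 8 cytosolic members with a window (Aars, Iars and Yars), in Gars among the 2 genes of both compartments, and in 0 of 6 mitochondrial members. The stretches of 30 bases around the matches in Iars, Yars and Gars are shown 5′ to 3′ on the gene's strand, with the motif or its reverse complement in capitals, from assembly GRCm38.p6.
Iars, chr13:49682126-49682155, plus strand, 7 bases after the start: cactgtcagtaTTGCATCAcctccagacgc
Yars, chr4:129189895-129189924, plus strand, 3 bases after the start: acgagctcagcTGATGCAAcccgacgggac
Gars, chr6:55037960-55037989, plus strand, 30 bases before the start: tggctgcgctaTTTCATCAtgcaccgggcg

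The matches in Iars and Yars lie just inside the transcribed part of the gene, and that in Gars lies before its start. Iars and Yars hold the exact core TGATGCAA, which 1.03% of all genes with a window held. The differences of the 4 genes with the motif ran from 1.93 to 2.87 after medium. Those of the 6 other genes with a window that are not purely mitochondrial (Eprs, Farsa, Farsb, Kars, Qars and Sars) ran from -0.42 to 1.79. A match is a description of the letters, and for the 8 members without a window (Hars, Hars2, Lars, Nars, Pars2, Rars, Vars and Wars) nothing is known here. For comparison, 3 well-known ATF4 targets outside the family held the motif as follows, with the same use of capitals.
Asns, chr6:7693214-7693243, minus strand, 23 bases before the start: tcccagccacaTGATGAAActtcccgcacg
Chac1, chr2:119351038-119351067, plus strand, 193 bases before the start: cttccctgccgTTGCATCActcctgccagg
Trib3, chr2:152344028-152344057, minus strand, 14 bases after the start: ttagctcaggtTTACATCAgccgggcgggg

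The next tier of cytosolic enzymes rose by 1.21 to 1.79 on the log2 scale. Sars, the seryl enzyme, measured 9.19, 9.39 and 9.32 in medium, while the fresh arrays had a lowest value of 7.29, a median of 7.41 and a highest of 7.86. This was a 3.45-fold rise (1.79 ± 0.16, adjusted p = 5.9e-06). Rars, the arginyl enzyme, measured 9.38, 9.46 and 9.23, against 7.41 to 7.92 (median 7.67) in fresh tissue. Its rise was 3.22-fold (1.69 ± 0.12, adjusted p = 2.09e-06). Nars, the asparaginyl enzyme, had the tightest replicates, at 11.39, 11.37 and 11.43 in medium and 9.54 to 9.93 (median 9.70) in fresh tissue, a 3.20-fold rise (1.68 ± 0.11, adjusted p = 9.56e-07). In none of the 3 genes did a medium array overlap with a fresh one.

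Lars, the leucyl enzyme, which also acts as a leucine sensor upstream of mTORC1, measured 9.50, 9.50 and 9.92 in medium and 8.26 to 8.55 (median 8.46) in fresh tissue. It rose 2.32-fold (1.21 ± 0.13, adjusted p = 1.97e-05). Eprs, a fused enzyme for glutamate and proline, measured 9.13, 9.41 and 9.36 in medium and 7.28 to 8.08 (median 8.04) when fresh. It rose 2.61-fold (1.38 ± 0.18, adjusted p = 9.01e-05), and both of its other probe sets rose, by 1.27 ± 0.14 and 1.30 ± 0.08. Both genes had every medium array above every fresh array.

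Farsa, the catalytic chain of the phenylalanyl enzyme, averaged 5.69 in medium, and none of its 6 fresh values reached the 40th percentile, so it too was tested through its medium values. It was at least 2.04-fold above the 40th percentile of the fresh arrays, and its measured difference was 1.40 ± 0.20 (adjusted p = 0.000149). The 3 remaining called members, Hars, Farsb and Kars, had the smallest rises. Hars, the histidyl enzyme, rose 1.76-fold (0.81 ± 0.12, adjusted p = 0.000183), with no overlap. Farsb, the partner chain of Farsa, rose 1.31-fold (0.39 ± 0.15, adjusted p = 0.0395), and its medium range of 8.05 to 8.33 touched the highest fresh value of 8.07. Kars, the lysyl enzyme of both compartments, rose 1.26-fold (0.34 ± 0.12, adjusted p = 0.0333), with medium values of 5.67 to 5.91 against 5.28 to 5.71.

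Wars and Qars did not pass. Wars, the tryptophanyl enzyme and a known interferon-induced gene, measured 6.65 to 6.76 in medium and 5.37 to 7.79 in fresh tissue (0.51 ± 0.42, adjusted p = 0.323). The wide fresh range came from replicate 14 at 7.79, and without that array the difference was 0.83 with an adjusted p of 0.00803. Qars, the glutaminyl enzyme, measured 8.10 to 8.72 in medium and 8.45 to 9.03 in fresh tissue (-0.42 ± 0.17, adjusted p = 0.0557). Its 3 other probe sets also gave negative differences, from -0.55 to -0.16. Qars was thus the cytosolic member with the opposite sign, and without fresh replicate 14, fresh replicate 15 or medium replicate 11 it passed the test as lower. It was also called lower in 4 of 10 other settings: a stricter level filter, the mean of all probe sets, array weights and all 22 arrays in 1 fit. Under the macrophage marker covariate described below its difference was 0.02.

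**Figure D2:**
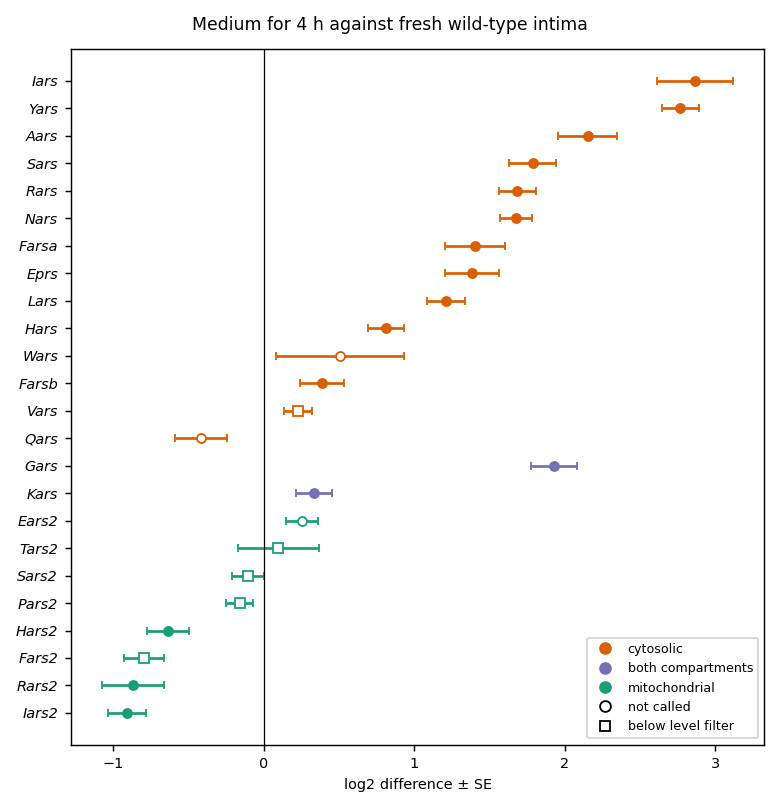
Log2 difference between intima kept 4 h in medium (n = 3) and fresh wild-type intima (n = 6) for the 24 synthetases, with bars for 1 SE. Filled points passed the test, open circles did not and open squares lay below the level filter. Cytosolic genes reach from -0.42 (Qars) to 2.87 (Iars), and mitochondrial genes from -0.91 (Iars2) to 0.25 (Ears2).

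Of the 8 mitochondrial members, Iars2, Rars2 and Hars2 fell. Iars2, the mitochondrial isoleucyl enzyme, measured 6.56, 6.26 and 6.62 in medium, and the 6 fresh arrays had a lowest value of 7.19, a median of 7.38 and a highest of 7.55. Every medium array was below every fresh one, and Iars2 fell by 0.91 ± 0.12, a 1.88-fold drop (adjusted p = 0.000125). Rars2, the mitochondrial arginyl enzyme, measured 5.53, 5.34 and 5.90 in medium and 6.16 to 6.95 (median 6.29) when fresh. It fell by 0.87 ± 0.21 (1.82-fold, adjusted p = 0.00428), again with no overlap.

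Hars2, the mitochondrial histidyl enzyme, measured 4.72, 4.73 and 5.20 in medium, against 5.31 to 5.72 (median 5.55) when fresh. It fell by 0.64 ± 0.14 (1.55-fold, adjusted p = 0.00255), and 2 of the 3 medium values sat at the edge of the level filter. Hars and Hars2 are direct neighbours in the genome with overlapping gene models, yet their transcripts moved in opposite directions. Ears2, which charges mitochondrial glutamate tRNA, had medium values of 4.82 to 5.04 and fresh values of 4.53 to 4.79, a difference of 0.25 ± 0.10 that did not pass (adjusted p = 0.0579). Its fresh values straddled the filter. Ears2 did pass as higher with median centring (0.40), with cyclic loess (0.40), with array weights (0.30) and with no level filter.

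The 4 mitochondrial members below the filter were measured without a main test. Fars2, the mitochondrial phenylalanyl enzyme, gave 3.35, 3.38 and 3.36 in medium and 3.86 to 4.42 (median 4.25) in fresh tissue, a difference of -0.79 ± 0.13 without overlap but entirely below the 40th percentile. Pars2 (-0.16 ± 0.09), Sars2 (-0.11 ± 0.11) and Tars2 (0.10 ± 0.27), the prolyl, seryl and threonyl enzymes of mitochondria, overlapped between the groups. Cytosolic Vars, the valyl enzyme, differed by 0.23 ± 0.09 at levels of 3.81 to 4.29 in these groups.

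**Figure D3:**
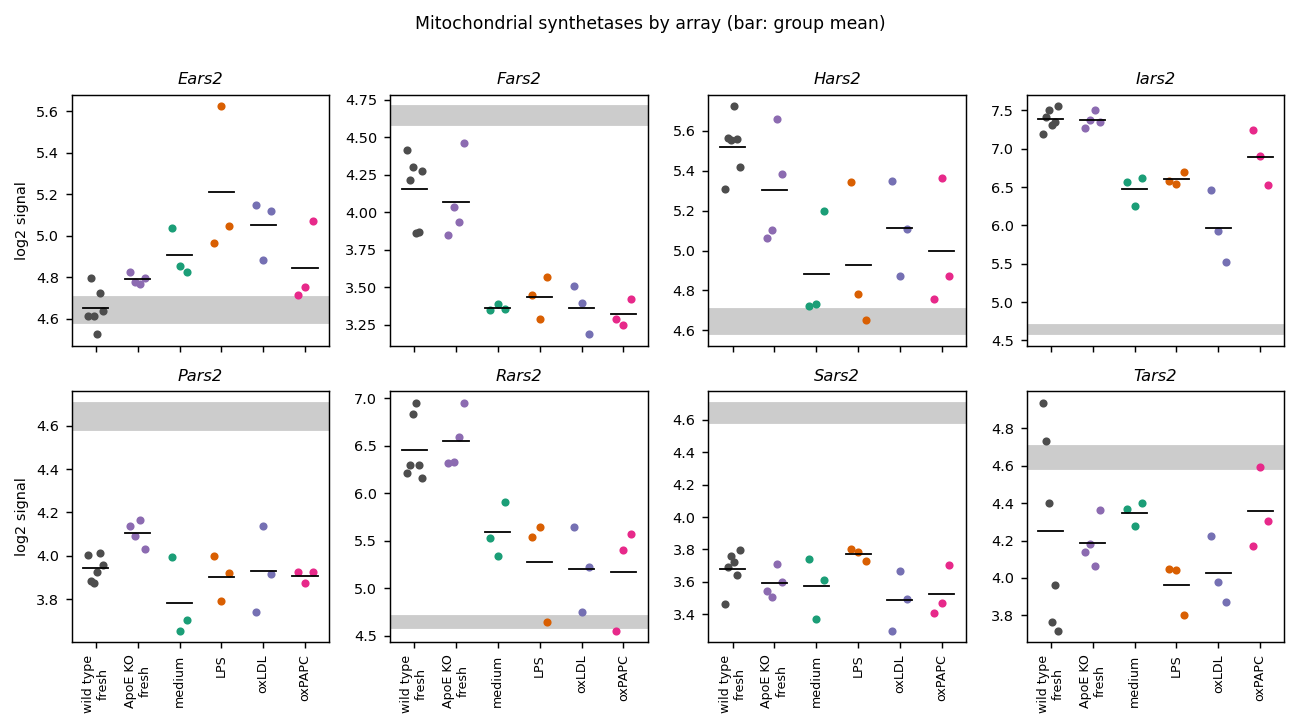
Log2 signal of the 8 mitochondrial synthetases on each of the 22 arrays, 1 point per array, with a bar at the group mean and a grey band for the 40th percentile of the arrays (4.58 to 4.71). Iars2 and Rars2 are lower on every medium array than on every fresh wild-type array, and Fars2, Pars2 and Sars2 stay below the band throughout.

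For 4 amino acids a cytosolic and a mitochondrial gene were both tested, so each array gives the difference between the partners. After medium the cytosolic partner gained on the mitochondrial one in each pair. The change in the log2 ratio was 3.77 for Iars over Iars2, 2.55 for Rars over Rars2, 1.45 for Hars over Hars2 and 1.13 for Eprs over Ears2. No medium array overlapped with a fresh one in these ratios. In each pair the two-sided exact permutation test over the 3 and 6 arrays gave p = 0.0119, the smallest that 84 splits allow, and adjustment over the 4 pairs left it at 0.0119. This test was chosen after the values had been seen. In the isoleucine, arginine and histidine pairs, both partners had already separated from the fresh arrays, in opposite directions. In the glutamate pair Eprs lay at 9.13 to 9.41 in medium and at 7.28 to 8.08 when fresh. The gap between these ranges was wider than the whole range of Ears2 over both groups, 4.53 to 5.04. The outcome for all 4 pairs was therefore fixed in advance and adds no support. The ratio within an array shows unequal change and not that either partner was constant.

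**Figure D4:**
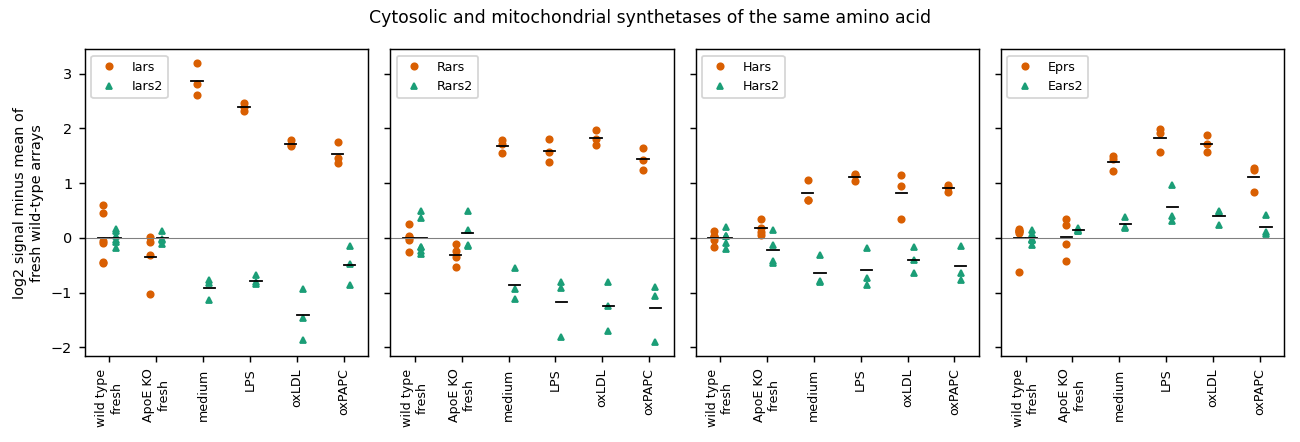
Log2 signal of 4 cytosolic synthetases (circles) and of their mitochondrial partners (triangles) on each array, minus the mean of the 6 fresh wild-type arrays, with bars at the group means. In the medium group Iars stands 2.87 and Rars 1.69 above the fresh mean, while Iars2 and Rars2 stand 0.91 and 0.87 below it (log2 differences -0.91 and -0.87).

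Of the 16 members called in this comparison, 14 passed with each of the 9 arrays left out in turn, the exceptions being Farsb and Kars. Other probe sets of called members pointed the same way in 9 of 9 cases. Markers of other cells moved too: 8 of 9 tested macrophage and leukocyte markers were higher (list median 1.31), and 8 of 10 smooth muscle markers were lower (-1.17). With the macrophage markers as a covariate, which raised the standard errors 3.22-fold, the genes called fell from 4410 to 310 higher and 223 lower of 7508. Aars, Iars, Nars, Yars and Gars still passed, and no mitochondrial member did. Among the lost members Eprs (1.67), Lars (1.37), Hars (1.07) and Iars2 (-0.89) kept differences about as large as before, whereas Rars2 went to 0.04. Farsa, lost under this covariate alone, had a smallest difference of 0.35 over the other settings of the analysis, against 1.40 in the main fit. For Sars, Rars and Hars2, also lost here, the smallest over those settings were 1.11, 1.25 and -0.37. When the smooth muscle markers were the covariate, 10 cytosolic members and Iars2 passed. Endothelial markers moved both ways, 5 higher and 2 lower of 15. Median centring moved the median of all tested genes from -0.13 to 0.02 and changed the split over all genes from 1824 higher and 2586 lower to 2229 and 1975, and cyclic loess gave 2218 and 2015. All 16 member calls and directions held under both, and both added Ears2 as higher.

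Among genes that work with the synthetases, Eef1e1 rose by 1.74 ± 0.19 (adjusted p = 2.72e-05) and Aimp2 by 1.18 ± 0.21 (adjusted p = 0.000696), both scaffolds of the multisynthetase complex. Aimp1, the third scaffold, differed by -0.30 ± 0.16 and did not pass (adjusted p = 0.123). In the same list of 5 tested relatives, Pstk, a kinase needed to make selenocysteyl-tRNA, fell by 1.19 ± 0.11, and Aarsd1, which clears misloaded alanine tRNA, fell by 0.37 ± 0.11. Of 8 tested genes that finish or edit mitochondrial tRNA charging and processing, 4 rose and 1 fell. This is near the 58.7% of all tested genes called in this comparison. The pseudouridine synthase Pus1 (1.66 ± 0.16) and the tRNA 3′ processing nuclease Elac2 (0.62 ± 0.13) rose with Trit1 and Trnt1, and Gatb, a subunit of the enzyme that makes mitochondrial glutaminyl-tRNA, fell by 1.00 ± 0.13. None of 5 cytosolic elongation factors was called, with differences from -0.04 (Eef1d) to 0.23 (Eef1g), and Eef1g alone was under 0.05 before adjustment in limma. Of 2 mitochondrial elongation factors tested, Gfm1 rose by 0.61 ± 0.15.

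ATF4 targets outside the family rose in the same comparison. Of 24 tested, 23 were higher and none was lower, with a median of 2.13 over those tested. Among the 24 are 4 whose fresh values all lay below the 40th percentile, and of the 20 others 19 were higher. These 20 may still hold genes with too few fresh arrays above that level to pass the filter without their medium values. Chac1, which degrades glutathione, and Asns, which makes free asparagine, are 2 of those 4, so their folds are lower bounds. Chac1 was at least 19.4-fold and Asns at least 23.6-fold above the 40th percentile of the fresh arrays (measured differences 5.80 ± 0.14 and 5.14 ± 0.15). Ddit3, a stress transcription factor, rose by 2.50 ± 0.16 and Trib3, a pseudokinase that feeds back on ATF4, by 2.16 ± 0.16. Atf4 itself measured 10.47, 10.74 and 10.43 in medium and 7.54 to 8.30 in fresh tissue, a rise of 2.48 ± 0.17 (adjusted p = 1.33e-06). Of the other 5 upstream kinases and factors tested, Nfe2l2 and Myc rose and Eif2ak3 fell, again near the 58.7% of all tested genes called.

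Among the stimuli, oxPAPC lowered part of the family relative to medium alone, and no member was called higher. Of 13 tested cytosolic synthetases, 6 were lower: Iars, Yars, Farsb, Lars, Aars and Farsa. Gars was lower as well, Kars was not called, and 0 of 4 tested mitochondrial members were called, with 0 at an unadjusted p under 0.05 in limma. Of the 7550 genes tested, 21.3% were called in this comparison, 8.34% higher and 12.9% lower. The median difference over all 14 cytosolic members was -0.37, over the 8 mitochondrial members -0.02 and over all genes 0.04. The medium arrays are the same as those in the comparison with fresh tissue, so the 2 sets of differences are not independent.

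Iars had the lowest adjusted p. It measured 8.17, 8.09 and 8.48 in oxPAPC replicates 11, 12 and 13, against 9.53, 9.33 and 9.91 in medium, and fell by 1.34 ± 0.16 (2.54-fold, adjusted p = 0.000886). Yars measured 5.21, 5.23 and 5.90, against 6.86, 6.70 and 6.71, and fell by 1.31 ± 0.21 (2.48-fold, adjusted p = 0.00243). For both genes the oxPAPC arrays lay below every medium array and above every fresh one. Aars measured 6.57, 6.42 and 7.07 against 7.45, 7.70 and 8.34 and fell by 1.14 ± 0.26 (2.21-fold, adjusted p = 0.0126). Its other probe set fell further, by 2.11 ± 0.17.

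The 2 chains of the phenylalanyl enzyme were both lower. Farsb measured 7.11, 6.29 and 7.38 with oxPAPC and 8.15, 8.05 and 8.33 in medium, and fell by 1.25 ± 0.28 (2.38-fold, adjusted p = 0.0115). Every oxPAPC value of Farsb was below the lowest fresh wild-type value of 7.40 as well, a comparison that was not tested. Farsa measured 4.79, 4.18 and 4.73 against 5.82, 5.21 and 6.04, and fell by 1.12 ± 0.29 (adjusted p = 0.0192) to levels around the 40th percentile.

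Lars measured 8.16, 8.02 and 9.14 with oxPAPC and 9.50, 9.50 and 9.92 in medium, and fell by 1.20 ± 0.26 (2.30-fold, adjusted p = 0.00997). Gars measured 9.70, 9.84 and 10.47 against 10.77, 10.91 and 10.95, and fell by 0.88 ± 0.19 (1.83-fold, adjusted p = 0.0106). In Iars, Yars, Aars, Farsb, Lars and Gars alike, oxPAPC replicate 13 was the array nearest to the medium group. The 4 genes with the TGATGNAA motif had differences of -1.34 to -0.88. The 6 others with a promoter window that are not purely mitochondrial ranged from -1.25 to 0.32, so the ranges overlapped here.

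The other cytosolic members did not pass. Nars measured 11.25 to 11.58 with oxPAPC and 11.37 to 11.43 in medium, a difference of -0.02 with a 95% interval of -0.30 to 0.25. Sars differed by -0.15 (-0.59 to 0.29), Rars by -0.25 (-0.59 to 0.09), Eprs by -0.26 (-0.63 to 0.11), Hars by 0.10 (-0.32 to 0.52) and Qars by 0.32 (-0.09 to 0.74). With array weights Qars was called higher (0.45), and with the smooth muscle covariate it was at -0.08. These intervals leave room for moderate changes in Sars, Rars, Eprs, Hars and Qars. Wars differed by -0.48 ± 0.24 without overlap (adjusted p = 0.167), and its other probe sets gave -0.89 ± 0.16 and -0.39 ± 0.13. With the mean of all probe sets per gene Wars passed as lower, and 7 cytosolic members were called. Kars differed by -0.43 ± 0.23 (adjusted p = 0.188).

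Of the 8 mitochondrial members 4 were tested with oxPAPC, and their differences lay on both sides of 0. The 95% intervals were wide, -0.10 to 0.93 for Iars2 and -1.14 to 0.30 for Rars2, and leave room for moderate changes. Iars2 measured 7.24, 6.91 and 6.53 against 6.56, 6.26 and 6.62 in medium, a difference of 0.41 ± 0.23 (adjusted p = 0.223). Rars2 measured 4.56, 5.40 and 5.57 against 5.53, 5.34 and 5.90 (-0.42 ± 0.33, adjusted p = 0.386). Hars2 (0.12 ± 0.23) and Ears2 (-0.06 ± 0.18) overlapped with medium too. Within the pairs, the log2 ratio of Iars over Iars2 changed by -1.76, with no overlap between the groups. The exact permutation test gave p = 0.1, the smallest that 3 against 3 arrays allow, and 0.4 after adjustment over the 4 pairs. Iars alone had already separated the groups. The lowest Iars2 value with oxPAPC (6.53) lay too little below the highest in medium (6.62) to undo this. The outcome was thus fixed in advance and adds no support. The other 3 pairs changed by -0.21 to 0.17.

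**Figure D5:**
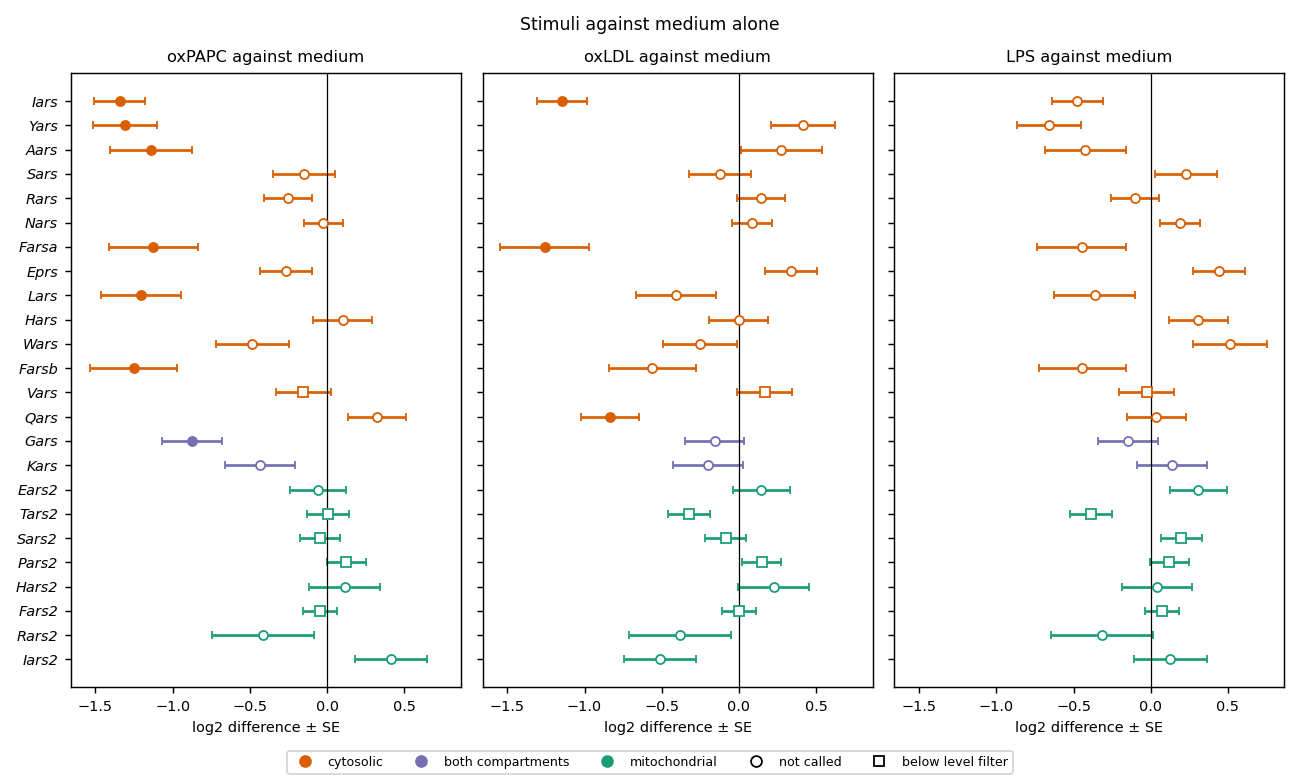
Log2 difference against medium alone for oxPAPC, oxLDL and LPS (n = 3 arrays in every group), with bars for 1 SE and the genes in the order of the medium comparison. Filled points passed the test, open circles did not and open squares lay below the level filter. With oxPAPC 7 points are filled, all below 0, with oxLDL 3 and with LPS none.

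Of the 7 members called with oxPAPC, 5 passed with each of the 6 arrays left out in turn. Aars was lost without oxPAPC replicate 12 (adjusted p = 0.0545), and Farsa without that array or without medium replicate 9 or 11. The 4 other probe sets of called members pointed the same way. Relative to medium, 8 of 15 endothelial markers were lower (list median over the tested genes -0.86), 7 of 11 macrophage and leukocyte markers were lower (-0.76) and 7 of 10 smooth muscle markers were higher (1.06). With the mean of any of these 3 lists as a covariate no member was called, the standard errors rose at least 1.70-fold, and at most 1 of the 7550 genes passed. The 7 differences kept their sign but shrank, several of them nearly to 0. At the smallest they were -0.93 (Iars), -0.55 (Farsa), -0.38 (Yars), -0.20 (Farsb), -0.03 (Aars), -0.03 (Lars) and -0.02 (Gars). Scaling changed the split over all genes from 630 higher and 976 lower to 787 and 811 with median centring and 727 and 793 with cyclic loess, and left the 7 calls in place.

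The scaffolds Aimp2 (-0.84 ± 0.17, adjusted p = 0.00783) and Eef1e1 (-0.77 ± 0.24, adjusted p = 0.041) were lower with oxPAPC, and Aimp1 was not called (-0.09 ± 0.17). Pus1 fell by 0.71 ± 0.20 and Elac2 by 0.58 ± 0.16 among 8 tested mitochondrial tRNA genes, near the 21.3% of all tested genes called. Of 26 tested ATF4 targets outside the family, 8 were lower and 1 higher. Chac1 fell by 1.01 ± 0.17, Ddit3 by 1.01 ± 0.23 and Trib3 by 1.10 ± 0.30, while Asns differed by -0.71 ± 0.28 without passing. The higher gene was the cystine transporter Slc7a11 (2.08 ± 0.43), which is also a known NRF2 target and is named here after its values were seen. Atf4 transcript differed by -0.01 ± 0.14.

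With oxLDL, 3 cytosolic members were lower, none was higher, and 0 of 4 mitochondrial members were called (0 at an unadjusted p under 0.05). Of the 7550 genes, 2.81% were called, 0.742% higher and 2.07% lower. Iars measured 8.39, 8.51 and 8.42 in oxLDL replicates 14, 15 and 16, below every medium array and every LPS array, and fell by 1.15 ± 0.16 (2.21-fold, adjusted p = 0.00793). Its second probe set gave a smaller difference of -0.40 ± 0.23. Farsa measured 4.44, 4.11 and 4.75 and fell by 1.26 ± 0.29 (adjusted p = 0.0398), to levels around the 40th percentile.

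Qars measured 7.66, 7.23 and 7.71 with oxLDL and 8.10, 8.29 and 8.72 in medium, and fell by 0.84 ± 0.19 (adjusted p = 0.0389). Of its other probe sets, the one above the 40th percentile on all 22 arrays gave 0.11 ± 0.12, so the 2 well-measured probe sets of Qars disagree. Yars (0.42 ± 0.21) and Eprs (0.34 ± 0.17) lay above every medium array without passing the test. Only Iars passed with each array left out. The number called was 1 without medium replicate 9 or 11 or oxLDL replicate 15 or 16, and 2 without medium replicate 10 or oxLDL replicate 14. With the smooth muscle or the macrophage markers as a covariate none passed, and with the endothelial markers Iars did. In oxLDL, 1 of 15 endothelial, 1 of 11 macrophage and none of 10 smooth muscle markers were called. Chac1 was the 1 ATF4 target called among 26 (-0.79 ± 0.17).

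With LPS, 0 of 19 tested members were called in limma, where 9.05% of the 7550 genes were called, 3.36% higher and 5.68% lower. At an unadjusted p under 0.05 there were 3, all cytosolic. Yars measured 6.29, 6.23 and 5.76, below all medium arrays (-0.66 ± 0.21, adjusted p = 0.0668). Iars measured 9.19, 9.03 and 9.12, also below all medium arrays (-0.48 ± 0.16, adjusted p = 0.0862). Eprs measured 9.83, 9.91 and 9.48, above all of them (0.44 ± 0.17, adjusted p = 0.117). With array weights these 3 passed, and with all 22 arrays in 1 fit Yars did.

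Wars is the member known as an interferon target, and 5 of 7 tested interferon-induced genes rose with LPS, led by Cxcl10 (4.93 ± 0.34), Rsad2 (3.73 ± 0.38) and Ifit1 (3.17 ± 0.41). Wars measured 7.56, 7.36 and 6.74 with LPS and 6.72, 6.76 and 6.65 in medium (0.51 ± 0.24, adjusted p = 0.19). LPS replicate 10 lay inside the medium range, the other 2 above it. The other 2 Wars probe sets differed by -0.47 ± 0.16 and -0.21 ± 0.13, so the probe sets do not give 1 direction. With the endothelial markers as a covariate Wars alone was called as higher, and in LPS 4 of 15 endothelial markers were lower. ATF4 targets went both ways among 26 tested: 2 rose (Slc7a11 and Psat1) and 4 fell (Chac1, Slc3a2, Slc7a5 and Vegfa), with Chac1 at -0.94 ± 0.17. Mitochondrial differences with LPS ran from -0.39 (Tars2, below the filter) to 0.31 (Ears2, 0.31 ± 0.18).

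Set directly against each other, the stimuli differed in a few members. OxPAPC against oxLDL, at the same concentration by mass, gave 6 calls among 19 tested members, with 12.4% of all genes called, 4.57% higher and 7.80% lower. Yars was lower with oxPAPC by 1.72 ± 0.21 (log2 difference -1.72, adjusted p = 0.00131), and so were Aars (-1.42 ± 0.26, adjusted p = 0.00741), Gars (-0.72 ± 0.19, adjusted p = 0.0317) and Eprs (-0.60 ± 0.17, adjusted p = 0.0383). Qars (1.16 ± 0.19, adjusted p = 0.0044) and mitochondrial Iars2 (0.92 ± 0.23, adjusted p = 0.0253) were higher with oxPAPC. Iars did not differ detectably between the lipid preparations in the main fit (-0.20, 95% interval -0.55 to 0.16). In 1 of 10 other settings of the analysis it was called lower with oxPAPC. Its differences over these settings ran from -0.67 to 0.11. Aars, Qars and Yars passed with each array left out. The 6 other probe sets of called members pointed the same way. With the mean of all probe sets, however, Qars was not called, and its smallest difference over the other settings was 0.53. Eprs passed in 4 of 10 other settings. The number of calls was 7 without oxPAPC replicate 13, 4 without oxLDL replicate 14 and 3 without any other array. With the endothelial markers as a covariate, where 0 of 7550 genes passed and the standard errors rose 1.63-fold, no member was called. Yars then differed by -1.03, Qars by 1.16, Aars by -0.59, Eprs by -0.27, Iars2 by 0.26 and Gars by -0.08.

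OxPAPC against LPS gave 4 calls, with 8.65% of all genes called, 3.96% higher and 4.69% lower. Iars (-0.87 ± 0.16, adjusted p = 0.00848), Wars (-0.99 ± 0.24, adjusted p = 0.025), Eprs (-0.71 ± 0.17, adjusted p = 0.025) and Gars (-0.73 ± 0.19, adjusted p = 0.0374) were lower with oxPAPC. This count hung on single arrays: it was 10 without oxPAPC replicate 13, 6 without LPS replicate 10, and 1 (Iars) without LPS replicate 3 or 4 or oxPAPC replicate 11 or 12. LPS against oxLDL gave 3 calls, with 5.07% of all genes called, 2.21% higher and 2.86% lower. Qars (0.87 ± 0.19, adjusted p = 0.024) and Iars (0.67 ± 0.16, adjusted p = 0.0374) were higher and Yars (-1.08 ± 0.21, adjusted p = 0.015) lower with LPS. The second Iars probe set gave -0.15 ± 0.23, and the other Qars probe sets gave 0.15 ± 0.12, -0.07 ± 0.37 and 0.15 ± 0.10. With the mean of all probe sets Qars was not called (0.28). The count was 1 without LPS replicate 3 or 4 or oxLDL replicate 15 or 16, 2 without oxLDL replicate 14, and 3 without LPS replicate 10.

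In fresh tissue the synthetases of hyperlipidemic ApoE -/- mice did not differ detectably from wild type. In this comparison 0.427% of 7264 genes were called, 0.138% higher and 0.289% lower, and 0 of 17 tested members, with Yars and Farsa now also below the filter. At an unadjusted p under 0.05 there were 3, namely Farsb (-0.52 ± 0.17, adjusted p = 0.164), Rars (-0.30 ± 0.12, adjusted p = 0.208) and Sars (0.33 ± 0.14, adjusted p = 0.246). Farsb measured 7.20, 7.39, 7.70 and 6.79 in knockout replicates 3, 4, 5 and 6, overlapping the wild-type range of 7.40 to 8.07. The count stayed at 0 with each of the 10 arrays left out. The median difference over all cytosolic members was 0.00, over the mitochondrial members -0.04 and over all genes 0.01. Iars measured 5.70, 6.40, 6.65 and 6.75 and differed by -0.35 (95% interval -0.91 to 0.21). None of 19 tested ATF4 targets and none of 5 tested synthetase relatives was called.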

How the data were processed

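Per the labels' protocols, RNA from scraped aortic endothelium was amplified and biotin labelled, and each of 22 samples was hybridised to 1 array. The authors deposited log2 signals, for which the submitters' processing notes name RMA and the affy package. Versions and the genome build are not given in the sources used here. RMA quantile normalizes, which can hide a shift shared by most genes. From these values, 1 probe set per gene was tested with limma 3.58.1 (R 4.3.3; lmFit, eBayes, two-sided, Benjamini-Hochberg) if it exceeded its array's 40th percentile on a number of arrays no smaller than that of the smallest group compared. The 12 incubated arrays were fitted together (7550 genes), medium with fresh wild type (7508) and the fresh arrays alone (7264). The ± values are standard errors. The fits were tested on simulated data. For oxPAPC against medium, 11.9% of simulated log2 changes of 0.5 were recovered, 76.1% of 1 and 98.5% of 2, with 3 of 127 calls false. For medium against fresh wild type the shares were 31.3%, 94% and 100%, with 12 of 162 calls false. The real comparisons called 21.3% and 58.7% of their genes, far more than were changed here, so these shares do not carry over to them. Of 22626 probe sets, 18003 carried 1 symbol and were used, and 17977 matched RefSeq (GRCm38.p6), which also gave the promoter windows. All members were named. Every member called in a comparison is given with its values, by array for up to 8 per comparison and class, together with 8 fixed partner and target genes and up to 3 called genes per list. Members and lists were chosen with earlier results of these data known. Slc7a11, the pair ratios and the marker covariates for macrophages and endothelium were chosen after seeing the data. The sequence around the Aars motif is not reported here. Where no fresh value of a gene exceeded the 40th percentile, its medium mean was also set against that percentile, which is not a detection limit, to give a lower bound. This was added after seeing the data.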

Additional observations from a re-analysis of the deposited data

Results flagged for a closer look

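In 48 sets of 4 or 6 fresh arrays (24 members, 2 groups), 1 value stood apart: Eprs in fresh wild-type replicate 8 measured 7.28, while the next value was 8.01. The gap was 0.901 of the range, above Dixon's 95% critical value for 6 arrays. Chance alone flags about 1 such set in 20. Without this array Eprs remained called after medium, as it did with every other array left out (log2 differences 1.26 to 1.47).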

How the results depend on the processing

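With 3 arrays in most groups, precision was limited by their number, and genes near the 40th percentile by background. Calls of cytosolic members with oxPAPC (6) became 0 with smooth muscle, macrophage or endothelial markers as a covariate. With oxLDL (3) they became 0, 0 and 1. With LPS (0) they became 3 with array weights, 1 with all 22 arrays in 1 fit and 1 with endothelial markers. After medium, cytosolic calls (11) became 4 with macrophage markers, and mitochondrial calls (3) became 5 with no level filter (4 lower, and Ears2 higher), 1 with smooth muscle and 0 with macrophage markers, where Rars2 turned to 0.0427 (SE raised 3.22-fold). Qars was called lower after medium in 4 of 10 other settings. Calls for oxPAPC against oxLDL (6) became 3, 3 and 0 with smooth muscle, macrophage and endothelial markers. For oxPAPC against LPS (4) they became 11 with array weights and 2, 1 and 0 with those markers. For LPS against oxLDL (3) they became 1 with the mean of all probe sets and 5 with endothelial markers. Leaving out 1 array at a time gave 1 to 2 calls with oxLDL, 3 to 7 for oxPAPC against oxLDL, 1 to 10 for oxPAPC against LPS and 1 to 3 for LPS against oxLDL. The causes were not tested. The macrophage and endothelial covariates were chosen after seeing the data. No paired analysis was possible because the groups compared share fewer than 2 replicate numbers.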
